A study of Mus musculus with 6 samples.

Results

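Peptide presentation on major histocompatibility complex (MHC) molecules was followed through 10 listed genes, found by symbol among the 54446 gene rows of a table on mouse cornea. Of these, 5 serve class I (H2-K1, H2-D1, B2m, Tap1 and Tap2) and 5 serve class II (H2-Aa, H2-Ab1, H2-Eb1, Cd74 and Ciita). The corneas were from wild-type C57BL/6 mice, 6 weeks old, and RNA was sequenced in 3 groups of 2 libraries each. The first group was wounded corneas of eyes given RNase III, an enzyme that cuts double-stranded RNA, by subconjunctival injection. The second was wounded corneas without RNase III, and the third was unwounded corneas. The wound was a surgical cut that took away limbus, epithelium and some of the stroma, so the sampled tissue itself differed between wounded and unwounded eyes. It is not labelled whether wounded eyes without RNase III were injected with a control fluid, how long after the wound corneas were taken, or whether the 2 libraries of a group came from separate animals. The p-values below therefore measure the spread between these libraries, which may be technical.

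Class I molecules stand on nearly all nucleated cells and show peptides from inside the cell to CD8 T cells. They consist of a heavy chain (in this strain from H2-K1 and H2-D1) and beta-2 microglobulin, the product of B2m, and take up peptides that the transporter made by Tap1 and Tap2 pumps into the endoplasmic reticulum. Class II molecules are made mainly by dendritic cells, macrophages and B cells and show peptides from taken-up material to CD4 T cells. H2-Aa and H2-Ab1 encode the alpha and beta chains of I-A, and H2-Eb1 encodes the beta chain of I-E. C57BL/6 mice lack a working gene for the I-E alpha chain, so I-E does not reach their cell surface. Cd74 encodes the invariant chain, which guides class II molecules to the endosome, and Ciita encodes the transactivator that class II transcription depends on. In the healthy cornea, class II is known mainly from resident leukocytes of the epithelium and stroma.

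Promoter sequences of 6 of the 10 genes were available from RefSeq (GRCm38.p6). The 160 bases before the RefSeq start are shown for 2 class I genes that rose with the wound and 2 class II genes whose levels kept together, with matches to searched motifs in capitals (5′ to 3′ on the strand of the gene). They cover chr17:34000348-34000507 for H2-K1 (minus strand), chr2:122147527-122147686 for B2m (plus), chr17:34287824-34287983 for H2-Aa (minus) and chr17:34305707-34305866 for H2-Eb1 (plus).
H2-K1: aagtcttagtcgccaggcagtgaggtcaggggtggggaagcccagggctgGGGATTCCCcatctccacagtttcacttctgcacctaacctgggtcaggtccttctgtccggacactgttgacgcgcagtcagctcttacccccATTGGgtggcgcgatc
B2m: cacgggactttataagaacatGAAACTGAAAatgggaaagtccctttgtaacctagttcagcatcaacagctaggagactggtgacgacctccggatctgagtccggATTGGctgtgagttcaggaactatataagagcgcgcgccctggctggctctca
H2-Aa: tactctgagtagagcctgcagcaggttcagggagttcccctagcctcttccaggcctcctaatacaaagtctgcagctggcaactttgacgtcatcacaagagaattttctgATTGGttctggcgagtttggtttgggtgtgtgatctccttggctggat
H2-Eb1: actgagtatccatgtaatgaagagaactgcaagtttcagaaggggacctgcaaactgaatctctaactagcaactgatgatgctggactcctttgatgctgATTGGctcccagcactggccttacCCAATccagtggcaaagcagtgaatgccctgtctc
The motifs were searched on both strands in the 250 bases before the start and do not overlap one another in these 4 stretches. ATTGG, the core of the Y box that MHC promoters share, read as CCAAT on the other strand, was present in all 6 available promoters, against 33.8% of 32851 promoter windows of the same length. Its place differed, and in Tap1 the only match was a CCAAT 222 bases before the start. Whether each match is the Y box of its gene was not tested. The H2-D1 window, chr17:35262844-35263093, lies inside the gene as GENCODE bounds it. GGGATTCCC, a kappa B site, was present in H2-K1 and H2-D1, against 0.301% of windows. An interferon-stimulated response element was present in B2m, as the capitals GAAACTGAAA, against 2.98% of windows. TTCNNNGAA, a gamma activated site, was present in none of the 6, against 7.02% of windows. Each element was searched as a fixed pattern, so variants of it were not counted, and a promoter without a match may hold such a variant. The matches describe letters only and show no binding.

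In the GENCODE M21 annotation of GRCm38, 7 of the genes lie on chromosome 17. From low to high coordinate these are H2-K1 at 33996017 to 34000347 (minus strand), Tap1 at 34187553 to 34197225 (plus), Tap2 at 34203527 to 34216321 (plus), H2-Ab1 at 34257689 to 34269419 (plus), H2-Aa at 34282744 to 34287823 (minus), H2-Eb1 at 34305867 to 34316674 (plus) and H2-D1 at 35262730 to 35267499 (plus). B2m lies on chromosome 2 at 122147686 to 122153083 (plus), Cd74 on chromosome 18 at 60803848 to 60812652 (plus) and Ciita on chromosome 16 at 10480059 to 10528418 (plus). All 10 are annotated as protein coding. H2-K1 and H2-D1 are close paralogs of each other and of the H2-Q and H2-T genes, and reads shared among them could be split either way, so the level of each single heavy chain is uncertain. Strandedness of the libraries is not given in the sources used here.

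Levels are given as TPM, the share of a library that a transcript makes up after correction for its length, which keeps no read depth, so the depth is unknown. Between 16751 genes (RNase III replicate 1) and 21033 genes (unwounded replicate 2) were above 0 TPM in a library. The tissue label fitted the markers, as Krt12, the keratin of the corneal epithelium, had 11217 to 19636 TPM in every library. Single libraries stood apart in other lists. The 6 neutrophil markers summed to 8744 TPM in wounded replicate 1 and 429 TPM in wounded replicate 2, and Cryaa, a lens crystallin, reached 1281 TPM in RNase III replicate 2, against at most 87.9 TPM in the other 5 libraries. Unwounded replicate 1, which was also the higher unwounded library for H2-Aa, H2-Ab1, H2-Eb1 and Cd74, had 51.03 TPM of the 4 skeletal muscle markers in sum, against 0.18 TPM in unwounded replicate 2, and wounded replicate 1 had 23.5 TPM of them, against 1.4 TPM in wounded replicate 2. Results that rest on 1 of these libraries are given below with and without it. In bulk tissue, fewer cells of a type and less RNA per cell cannot be told apart.

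The class I chain genes were by far the most abundant of the 10. B2m, the light chain, had 349 and 766 TPM in RNase III corneas, 1201 and 1248 TPM after the wound alone and 394 and 334 TPM in unwounded corneas. H2-K1 had 357 and 591 TPM with RNase III, 651 and 642 TPM after the wound alone and 301 and 269 TPM in unwounded corneas. H2-D1 had 503 and 641 TPM with RNase III, 655 and 660.1 TPM after the wound alone and 429.7 and 387 TPM in unwounded corneas. For all 3 genes both wounded libraries were above every other library, and both unwounded libraries were below RNase III replicate 2. The transporter genes stood lower. Tap1 had 19.4 and 61.6 TPM with RNase III, 37.0 and 55.6 TPM after the wound alone and 22.96 and 20.5 TPM in unwounded corneas. Tap2 had 19.7 and 48.1 TPM with RNase III, 33.2 and 35.6 TPM after the wound alone and 20.8 and 19.6 TPM in unwounded corneas. For both transporter genes RNase III replicate 2 was the highest of the 6 libraries, while RNase III replicate 1 stood close to the unwounded libraries.

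The class II genes had far lower TPM than the class I chains. H2-Aa had 6.60 and 20.4 TPM in RNase III corneas, 43.4 and 40.5 TPM after the wound alone and 37.5 and 21.2 TPM in unwounded corneas. H2-Ab1 had 8.25 and 23.5 TPM with RNase III, 30.03 and 44.2 TPM after the wound alone and 39.5 and 22.1 TPM in unwounded corneas. H2-Eb1 had 6.53 and 15.65 TPM with RNase III, 28.2 and 34.4 TPM after the wound alone and 27.1 and 15.4 TPM in unwounded corneas. In all 3 chain genes the RNase III libraries were both below the 2 wounded ones, and the 2 unwounded libraries differed among themselves. Cd74 followed the same order, with 17.6 and 42.6 TPM with RNase III, 82.6 and 94.9 TPM after the wound alone and 90.4 and 42.9 TPM in unwounded corneas. Ciita, the transactivator, was listed at 0 and 0.19 TPM with RNase III, 0.14 and 0.06 TPM after the wound alone and 0.28 and 0.17 TPM in unwounded corneas. Ciita thus fell short of the filter used for testing (at least 1 TPM in at least 2 libraries). The other 9 genes were at 1 TPM or more in all 6 libraries, so none of them passed through 1 group alone.

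**Figure D1:**
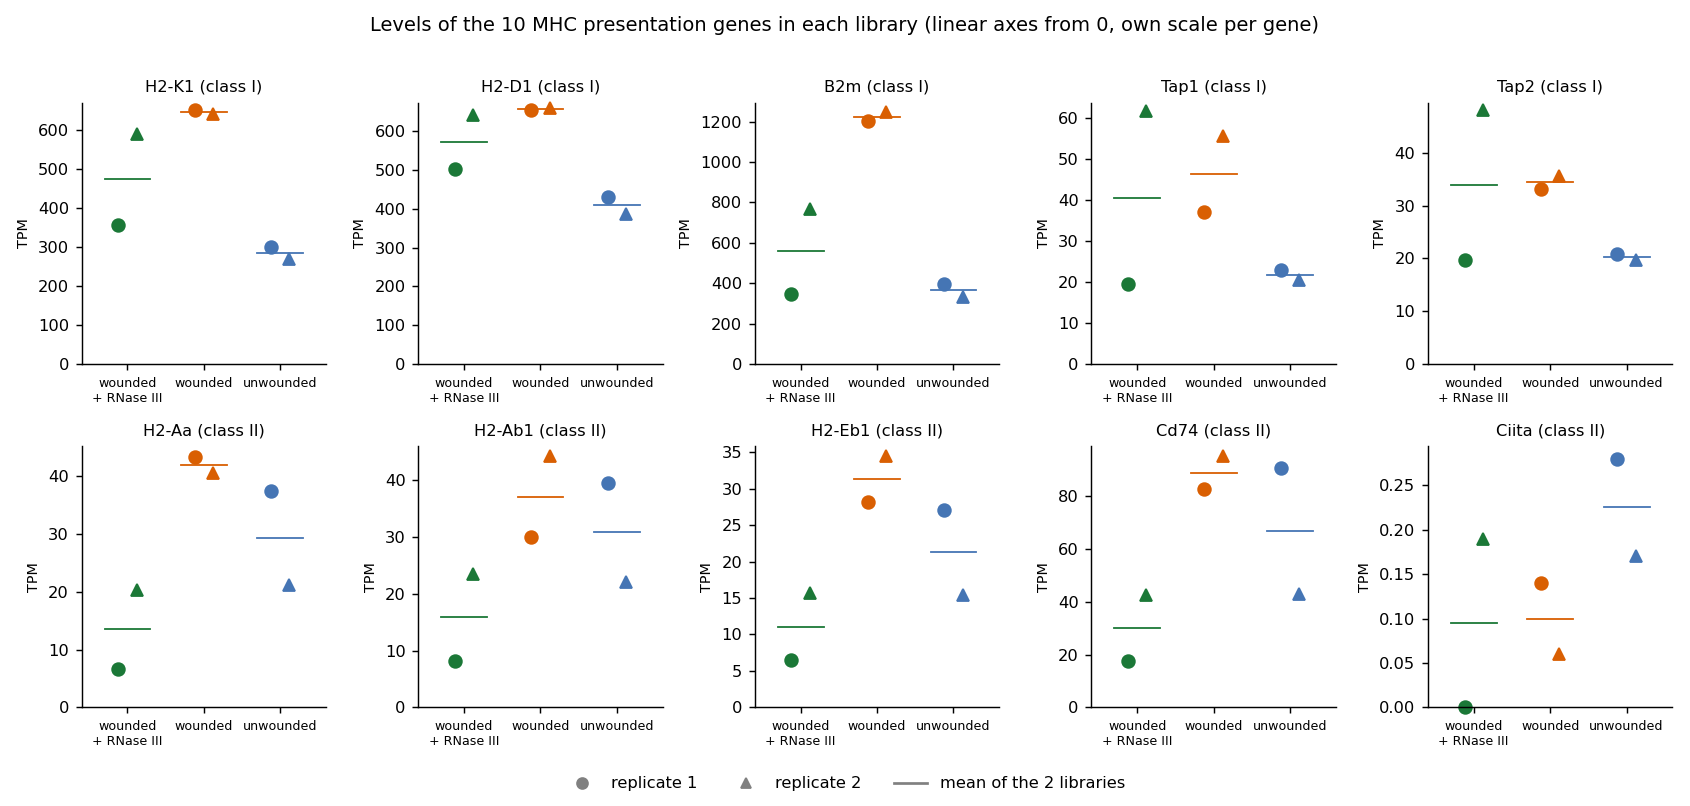
Level in TPM (vertical axes, linear from 0, own scale per gene) of the 10 genes in each library of the groups wounded with RNase III, wounded and unwounded; circles are replicate 1, triangles replicate 2 and lines the mean of the 2. The wounded libraries of H2-K1, H2-D1 and B2m lie above all others, and RNase III replicate 1 is the lowest library for 6 of the 10 genes.

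Wounded corneas were first set against unwounded ones, to see how presentation genes differed after the injury. B2m and H2-K1 rose, and no member fell. B2m averaged 1225 ± 33.4 TPM in wounded corneas and 364 ± 42.5 TPM in unwounded corneas (SD, n = 2 each), 3.37-fold higher on the TPM + 1 scale (log2 difference 1.75, SE 0.36, limma adjusted p = 0.0299). H2-K1 averaged 647 ± 6.43 TPM in wounded corneas and 285 ± 23 TPM in unwounded corneas, 2.27-fold higher (log2 difference 1.18, SE 0.26, limma adjusted p = 0.0336). Among all 14748 genes tested, 6.12% were called higher and 9.83% lower, and 2 of the 9 tested members were called, both higher. Scaling the libraries to a common median ratio called 1525 genes higher and 1001 lower, against 902 and 1450 with TPM as deposited. It moved the median log2 difference of all genes by 0.25, to -0.01, against -0.26 unscaled, without turning the direction of a member. Both calls were lost when any 1 of the 4 wounded or unwounded libraries was left out, with limma adjusted p between 0.0811 and 0.229 for H2-K1 and between 0.0795 and 0.210 for B2m. The log2 differences stayed at 1.10 to 1.26 for H2-K1 and 1.63 to 1.87 for B2m.

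The other class I genes had log2 differences of the same sign that did not pass the test. H2-D1 differed by 0.69 (SE 0.19, limma adjusted p = 0.0571), Tap1 by 1.03 (SE 0.51, adjusted p = 0.189) and Tap2 by 0.74 (SE 0.39, adjusted p = 0.214). In each of the 5 class I genes both wounded libraries lay above both unwounded libraries, a separation seen upward in 25.3% of all genes. With only the wounded and unwounded libraries in the fit, or without either RNase III library, all 5 class I genes were called higher, beside 1281 genes in all with only those libraries and 1293 or 1297 without RNase III replicate 1 or 2, against 902 in the fit of 6. The scatter between the RNase III libraries, wide for Tap1 and Tap2, enters the spread of the 6-library fit. The median log2 difference of the 5 class I genes was 1.03, against -0.26 over all genes tested.

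No class II gene passed the test after the wound. The log2 difference was 0.55 for H2-Aa (95% interval -0.65 to 1.76, limma adjusted p = 0.455), 0.29 for H2-Ab1 (-0.92 to 1.51, adjusted p = 0.701), 0.58 for H2-Eb1 (-0.47 to 1.63, adjusted p = 0.367) and 0.50 for Cd74 (-0.65 to 1.65, adjusted p = 0.480). These intervals include both no difference and a difference as large as that of H2-K1. Both wounded libraries lay above both unwounded libraries for H2-Aa and H2-Eb1 and overlapped with them for H2-Ab1 and Cd74. Over all members this separation upward held for 7 of 9, beside the 25.3% of all genes. Without unwounded replicate 2 the differences of H2-Ab1 and Cd74 were -0.11 and -0.03.

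The comparison of RNase III with wounded corneas asks whether presentation genes differed where the enzyme was injected. As a control injection is not labelled, injection and enzyme cannot be told apart. No gene at all passed the test there (limma, 0.0% of 14748 genes called in either direction), and 1838 genes, 12.5%, had an unadjusted p under 0.05. Among the 9 tested members 5 had an unadjusted p under 0.05, all with lower values in RNase III corneas, against 4.64% of all genes lower at that threshold. H2-Aa averaged 13.5 ± 9.74 TPM in RNase III corneas and 41.95 ± 2.02 TPM in wounded corneas (SD, n = 2 each), a log2 difference of -1.75 (95% interval -2.96 to -0.55, limma adjusted p = 0.317). Cd74 differed by -1.65 (SE 0.48, adjusted p = 0.317), H2-Eb1 by -1.52 (SE 0.44, adjusted p = 0.317) and H2-Ab1 by -1.32 (SE 0.51, adjusted p = 0.374). B2m averaged 557 ± 295 TPM in RNase III corneas and 1225 ± 33.4 TPM in wounded corneas, a log2 difference of -1.24 (95% interval -2.10 to -0.38, limma adjusted p = 0.317). None of these differences passed the limma test adjusted over all genes. The RNase III libraries were both below the 2 wounded ones for 7 of the 9 members (H2-K1, H2-D1, B2m and the 4 class II genes), against 14.3% of all genes.

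Size depended on which RNase III library was used. Without RNase III replicate 1 the log2 differences from wounded corneas were -1.01 for H2-Aa, -0.61 for H2-Ab1, -0.95 for H2-Eb1, -1.04 for Cd74 and -0.68 for B2m. Without RNase III replicate 2 they were -2.50 for H2-Aa, -2.02 for H2-Ab1, -2.09 for H2-Eb1, -2.27 for Cd74 and -1.81 for B2m. The remaining class I genes differed less. H2-K1 differed by -0.49 (SE 0.26, limma adjusted p = 0.480) and H2-D1 by -0.21 (SE 0.19, adjusted p = 0.669). These were -0.13 for H2-K1 and -0.04 for H2-D1 without RNase III replicate 1, and -0.86 for H2-K1 and -0.39 for H2-D1 without RNase III replicate 2. Tap1 differed by -0.37 (adjusted p = 0.781) and Tap2 by -0.15 (adjusted p = 0.896), and both turned sign, to 0.43 and 0.47, without RNase III replicate 1. The median log2 difference was -1.59 over the 4 class II genes and -0.37 over the 5 class I genes, against 0.09 over all genes.

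The comparison of RNase III with unwounded corneas shares its libraries with the others and is given for its own values. None of the 9 members passed the limma test, beside 4.72% of all genes called higher and 4.58% lower, though class I and class II genes had differences of opposite sign. H2-K1 differed by 0.69 (SE 0.26, limma adjusted p = 0.118), H2-D1 by 0.48 (SE 0.19, adjusted p = 0.139) and B2m by 0.51 (SE 0.36, adjusted p = 0.346). Tap1 differed by 0.66 (adjusted p = 0.389) and Tap2 by 0.59 (adjusted p = 0.320). The class II differences were -1.2 for H2-Aa (adjusted p = 0.147), -1.02 for H2-Ab1 (adjusted p = 0.202), -0.94 for H2-Eb1 (adjusted p = 0.180) and -1.15 for Cd74 (adjusted p = 0.144). Without RNase III replicate 1 the class II differences were -0.45 for H2-Aa, -0.32 for H2-Ab1, -0.37 for H2-Eb1 and -0.54 for Cd74, and without RNase III replicate 2 they were -1.94, -1.73, -1.51 and -1.77 in the same order of genes. Without RNase III replicate 1, H2-K1 and Tap2 were called higher, with log2 differences of 1.05 (limma adjusted p = 0.0465) and 1.21 (adjusted p = 0.0439). Without RNase III replicate 2, B2m, Tap1 and Tap2 stood at -0.06, -0.15 and -0.03.

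**Figure D2:**
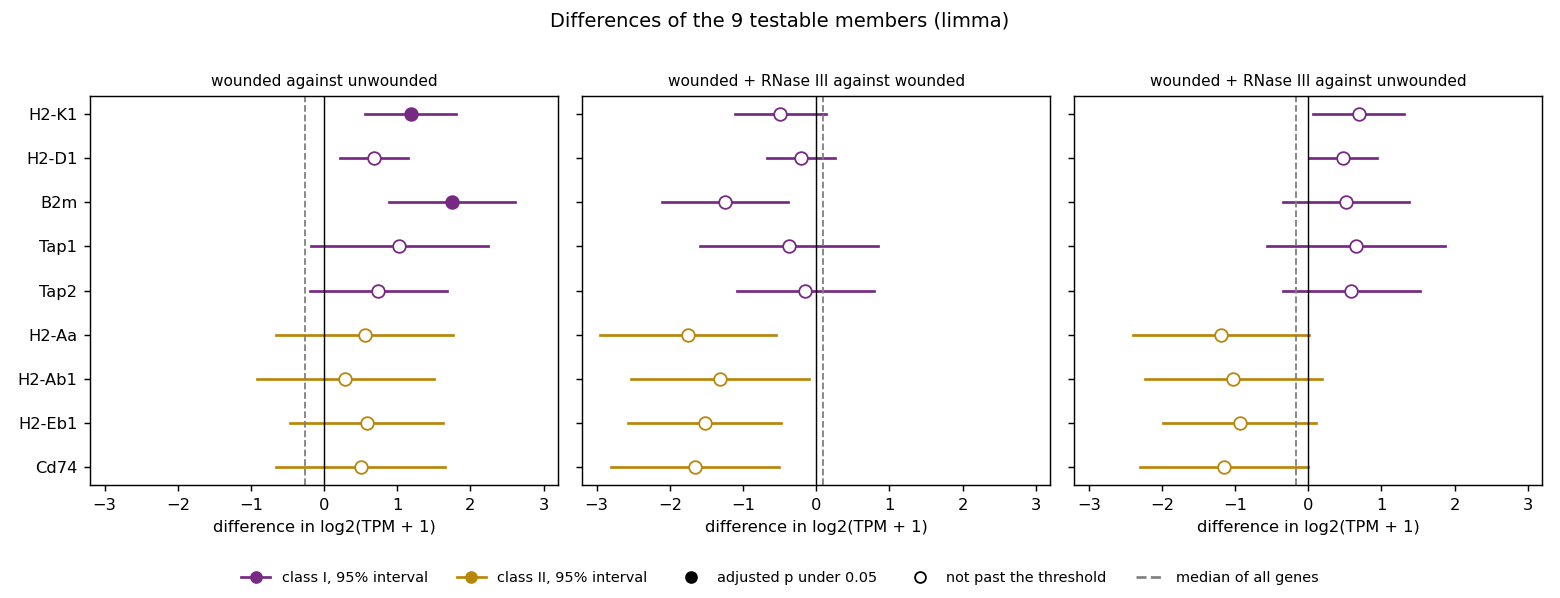
Difference in log2(TPM + 1) (horizontal axis) of the 9 testable genes in the 3 comparisons, with 95% intervals from limma; filled points passed an adjusted p of 0.05 and dashed lines mark the median of all genes. H2-K1 at 1.18 and B2m at 1.75 in wounded against unwounded corneas are the points that passed.

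Class II was set against class I within each library, where the total of the library cancels. The summed TPM of the class II chain genes H2-Aa, H2-Ab1 and H2-Eb1 came to 21.4 and 59.5 in RNase III corneas, 101.6 and 119 in wounded corneas and 104 and 58.8 in unwounded corneas. The sum of the class I chain genes H2-K1, H2-D1 and B2m came to 1209 and 1998 TPM with RNase III, 2508 and 2551 TPM after the wound alone and 1125 and 990.1 TPM in unwounded corneas. Class II chains thus amounted to 1.77% and 2.98% of class I chains in RNase III corneas, 4.05% and 4.67% in wounded corneas and 9.26% and 5.94% in unwounded corneas. The 3 groups did not overlap in this percentage, which was lowest with RNase III and highest without a wound. The separation of wounded from unwounded corneas rested on B2m: against H2-K1 plus H2-D1 alone, class II chains amounted to 2.49% and 4.83% in RNase III corneas, 7.77% and 9.15% after the wound alone and 14.2% and 8.96% in unwounded corneas, so that wounded and unwounded libraries overlapped. On the log2 scale the ratio differed by -0.77 between wounded and unwounded corneas, by -0.92 between RNase III and wounded corneas and by -1.69 between RNase III and unwounded corneas, with a pooled SD between replicates of 0.41. These values are given as descriptions, with no test.

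Proportions within each class were compared next. B2m amounted to 0.406 and 0.622 of the summed heavy chains H2-K1 and H2-D1 in RNase III corneas, 0.919 and 0.959 in wounded corneas and 0.539 and 0.509 in unwounded corneas. This ratio was highest in the wounded libraries, which did not overlap with the others. H2-K1 over H2-D1 was 0.710 and 0.922 with RNase III, 0.994 and 0.973 after the wound alone and 0.701 and 0.694 in unwounded corneas, with the caution on shared reads above. Within class II, Cd74 amounted to between 0.716 and 0.868 of the summed chains, and H2-Aa made up 30.9% to 42.7%, H2-Ab1 29.6% to 39.5% and H2-Eb1 26.0% to 30.5% of them. H2-Aa over H2-Ab1 ranged from 0.8 in RNase III replicate 1 to 1.44 in wounded replicate 1. H2-Eb1 was present at these levels although its I-E partner chain is missing in the strain.

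**Figure D3:**
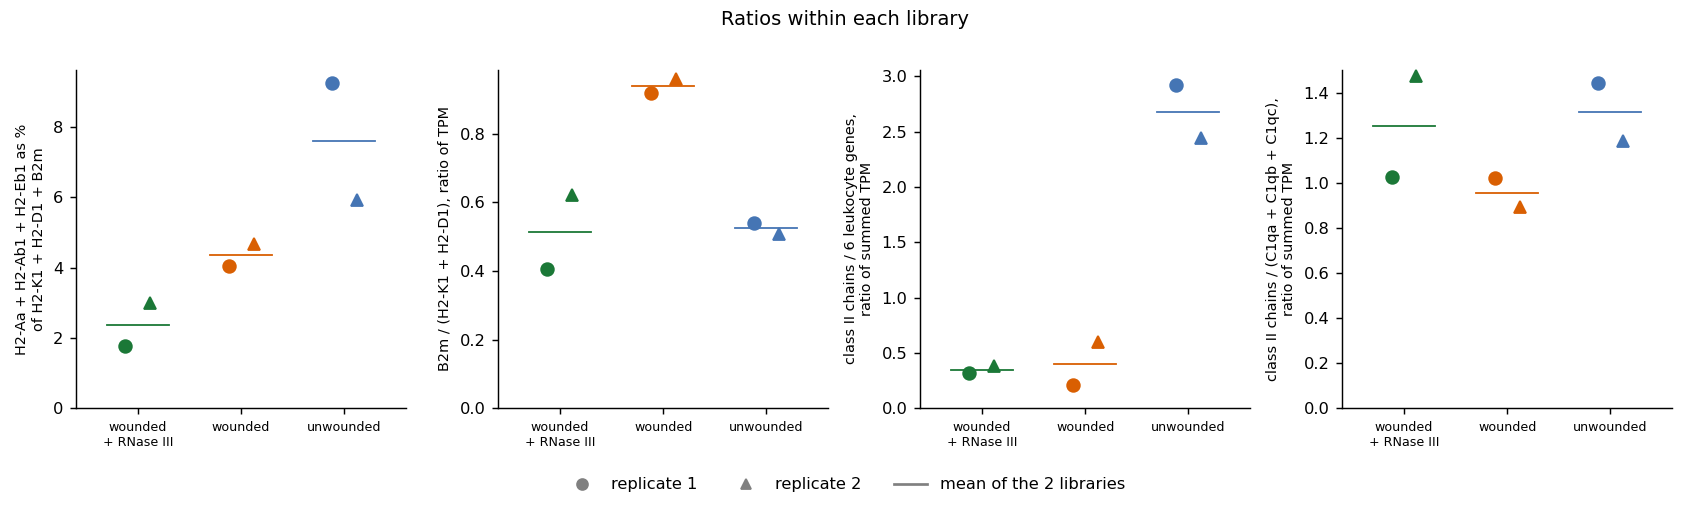
Ratios of summed TPM within each library (vertical axes, linear from 0) for the groups wounded with RNase III, wounded and unwounded; circles are replicate 1, triangles replicate 2 and lines the mean of the 2. Class II chains fall between 1.77% and 9.26% of class I chains, and B2m comes nearest to the heavy chains in wounded corneas, at 0.919 and 0.959.

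The libraries also differed in leukocyte markers. The 6 general leukocyte markers summed to 67.8 and 155 TPM in RNase III corneas, 492 and 198 TPM after the wound alone and 35.6 and 24.1 TPM in unwounded corneas. Of them 5 of 6 rose with the wound, beside 6.12% of all genes. Cd53 and Lcp1 among these had 129 and 65.1 TPM in wounded replicate 1, the library high in neutrophil markers, against 30.2 and 18.2 TPM in wounded replicate 2. The 8 macrophage markers summed to 67.4 and 134 TPM with RNase III, 238 and 234 TPM after the wound alone and 109.8 and 73.7 TPM in unwounded corneas, and 3 of 8 (C1qb, Cd68 and Fcgr1) rose with the wound, beside the same 6.12%. Between RNase III and wounded corneas no marker of either list passed the limma test, while 7 of the 8 macrophage markers had both RNase III libraries below both wounded libraries, against 14.3% of all genes. The 4 monocyte markers summed to 332 and 588 TPM with RNase III, 376 and 572 TPM after the wound alone and 842 and 609.7 TPM in unwounded corneas. That sum was mostly Plac8, while Ly6c2, the defining marker, had 3.2 and 32.5 TPM with RNase III, 75.5 and 92.8 TPM after the wound alone and 0.23 and 0.13 TPM in unwounded corneas. Itgam of the same list went the other way, with 23.1 and 31.95 TPM with RNase III, 17.5 and 17.4 TPM after the wound alone and 72.6 and 77.8 TPM in unwounded corneas, and fell with the wound by 2.05 on the log2 scale (limma adjusted p = 0.00859). The part of these cells in the differences of the MHC genes was not tested.

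Markers of dendritic and Langerhans cells, which also make class II, were low. Flt3, the defining dendritic cell gene, stood between 0.1 and 0.3 TPM in every library, and Cd207 of Langerhans cells at 0 to 0.1 TPM. Others of the list stood higher in single libraries. Cd209a reached 2.71 TPM in unwounded replicate 1, and Itgax 2.69 TPM and Batf3 1.96 TPM in wounded replicate 1. Itgax differed by 1.02 with the wound (limma adjusted p = 0.116). Ptprc, the defining leukocyte marker, was itself at 1.61 and 0.74 TPM in unwounded corneas. The part of dendritic cells in class II was not tested. The 10 dendritic and Langerhans cell markers summed to 4.10 and 3.75 TPM in RNase III corneas, 8.36 and 5.94 TPM after the wound alone and 6.58 and 3.74 TPM in unwounded corneas. Of the 4 dendritic markers high enough to test, Ccr7 of migrating cells rose with the wound by 1.43 and stayed at or under 1.8 TPM. Cd3e of T cells was at most 0.31 TPM and Ncr1 of NK cells at most 0.1 TPM. Others of these lists stood higher. Cd4 had 2.02 TPM in unwounded replicate 1, and Lck of the T cell list ranged from 0.41 to 1.98 TPM. Gzma of the NK cell list had 0 and 0.12 TPM with RNase III, 1.04 and 1.51 TPM after the wound alone and 0.1 and 0.58 TPM in unwounded corneas. Cd79b, a B cell gene, had 0.2 and 0.3 TPM with RNase III, 0.8 and 0.53 TPM after the wound alone and 1.68 and 1.74 TPM in unwounded corneas, without passing the limma test in any comparison. The ratio of class II chains to the complement genes C1qa, C1qb and C1qc of macrophages ranged from 0.894 to 1.48 over the 6 libraries. Only these genes of the 8 macrophage markers entered the ratio, and not all of the list kept as close to class II. Cd68 of that list had 42.6 and 74.9 TPM with RNase III and 91.0 and 51.7 TPM after the wound alone. In unwounded corneas Cd68 had 19.3 and 14.8 TPM, below every other library, unlike class II. Against the 6 general leukocyte markers the class II chains amounted to 0.315 and 0.383 with RNase III, 0.206 and 0.601 after the wound alone and 2.92 and 2.44 in unwounded corneas. Relative to these markers, class II was thus lower in all 4 wounded libraries than in both unwounded ones, whether or not RNase III was given. The leukocyte sum was higher in wounded corneas. The class II sum was 101.6 and 119 TPM after the wound alone and 104 and 58.8 TPM in unwounded corneas. Which leukocytes made up the marker sum was not tested. The 5 keratocyte markers of the stroma summed to 919 and 1543 TPM with RNase III, 3309 and 3708 TPM after the wound alone and 6512 and 5053 TPM in unwounded corneas. Of them 4 had both RNase III libraries below both wounded libraries, against 14.3% of all genes, and none passed the limma test there. Their median log2 difference there was -1.54, against -1.58 for the 8 macrophage markers and -1.59 for the 4 class II genes. The part of keratocytes in the class II differences was not tested.

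**Figure D4:**
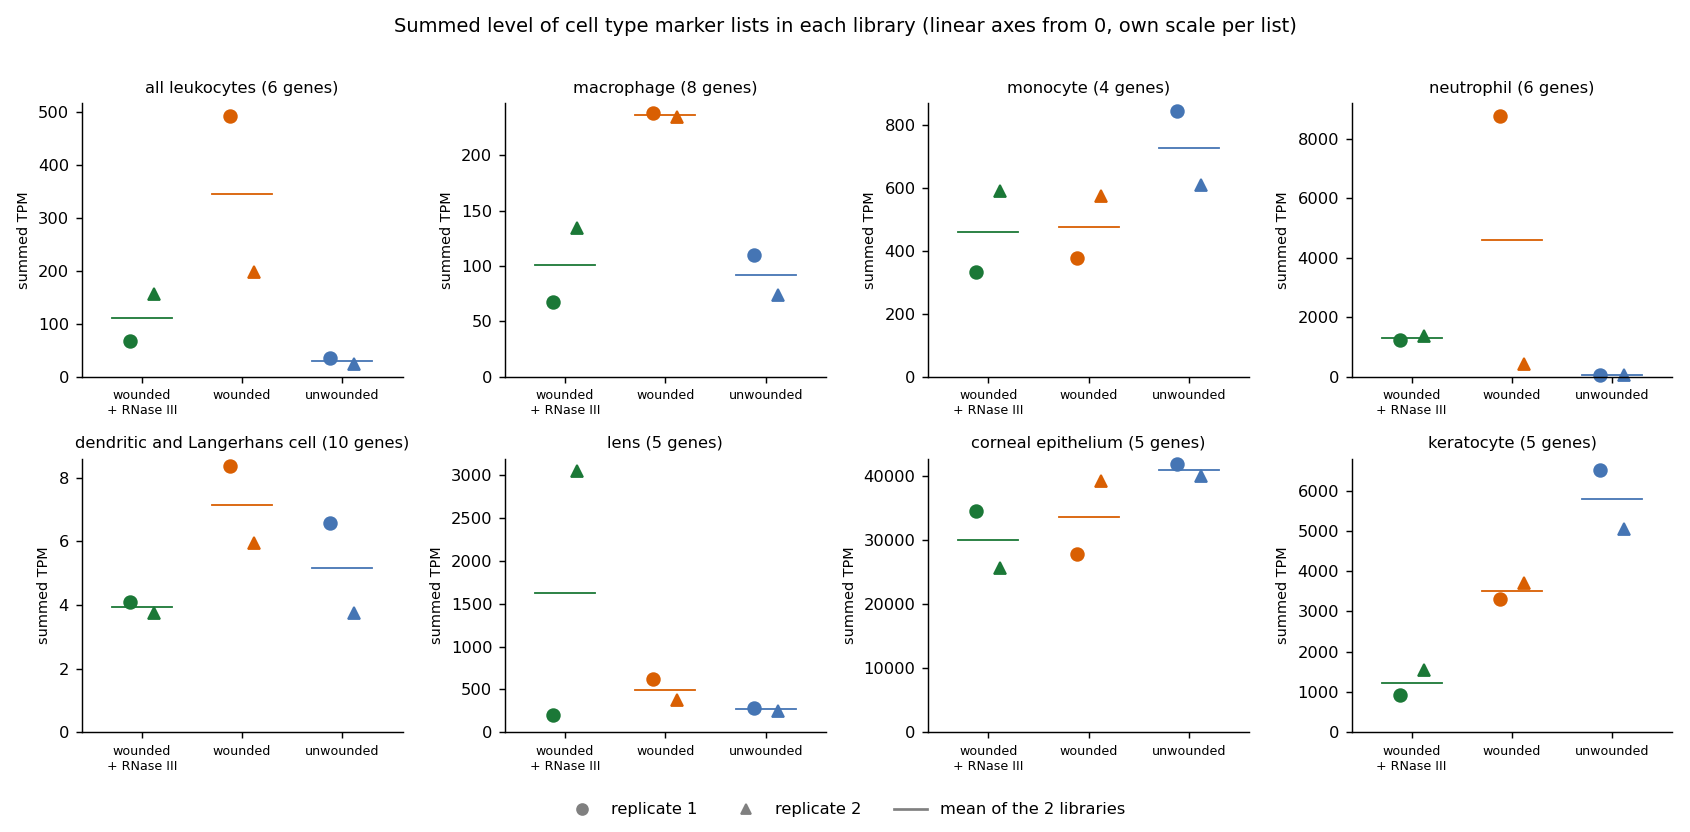
Summed TPM (vertical axes, linear from 0, own scale per list) of 8 marker lists in each library of the groups wounded with RNase III, wounded and unwounded; circles are replicate 1, triangles replicate 2 and lines the mean of the 2. The macrophage sum is highest in the wounded libraries, at 238 and 234 TPM, and the dendritic and Langerhans cell sum is at most 8.36 TPM.

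Genes that work with the members were counted by role, 52 of them testable. In wounded against unwounded corneas 13 of the 52 rose and 5 fell (limma), beside 6.12% and 9.83% of all genes. Without wounded replicate 1, unwounded replicate 1 or unwounded replicate 2, none of the 18 calls was kept, and without wounded replicate 2, 5 were kept, while the direction of all 18 stayed. In RNase III against wounded corneas none of the 52 passed, beside 0.0% of all genes. In RNase III against unwounded corneas 6 rose (Pdia3, H2-Q6, Cd80, Nlrc5, Rela and Ifngr1) and 1 fell (Mr1), beside 4.72% and 4.58% of all genes. None of these 7 calls was kept without either unwounded library, 2 were kept without RNase III replicate 2 and 4 without RNase III replicate 1, while the direction of all 7 stayed.

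Of the 11 genes of peptide supply for class I, 2 rose with the wound and none fell, beside 6.12% and 9.83% of all genes. Of the 6 genes of class I loading and trimming, Pdia3, which helps fold the heavy chain, rose with the wound. It had 425 and 419.6 TPM in RNase III corneas, 399 and 396 TPM after the wound alone and 251 and 245 TPM in unwounded corneas, and was 0.68 higher on the log2 scale after the wound (SE 0.16, limma adjusted p = 0.0386) and 0.76 higher with RNase III than without a wound (adjusted p = 0.038). Both wounded groups thus lay above the unwounded libraries for Pdia3, and replicates stood close together. Calr, the chaperone calreticulin and the most abundant gene of the list, differed by 0.75 with the wound (SE 0.29, limma adjusted p = 0.122). Of 5 genes of the immunoproteasome and its activator, the catalytic subunit gene Psmb10 rose by 0.80 (SE 0.19, limma adjusted p = 0.0382), and the activator genes Psme1 and Psme2 differed by 0.66 (adjusted p = 0.0508) and 0.18 (adjusted p = 0.681). The other catalytic subunit genes, Psmb8 and Psmb9, which lie beside Tap1 and Tap2 in the MHC region, differed by -0.06 and 0.13 and did not pass.

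Among the other class I and class I-like heavy chains, 5 of 12 tested rose with the wound and 1 fell, beside 6.12% and 9.83% of all genes, and the median log2 difference was 1.04, against -0.26 over all genes. H2-Q7, a non-classical chain, had 3.05 and 14.6 TPM in RNase III corneas, 20.8 and 20.2 TPM after the wound alone and 1.2 and 0.81 TPM in unwounded corneas, a rise of 3.43 on the log2 scale with the wound (SE 0.60, limma adjusted p = 0.0216). H2-Q6 rose by 2.43 (adjusted p = 0.0301), H2-Q4 by 1.62 (adjusted p = 0.0405), H2-T22 by 1.28 (adjusted p = 0.0331) and H2-T23, the mouse Qa-1 chain, by 0.95 (adjusted p = 0.0469). These H2-Q and H2-T genes carry the same caution on reads shared between paralogs as H2-K1 and H2-D1. Mr1, which presents vitamin metabolites to innate-like T cells, went the other way, with 28.2 and 27.9 TPM in RNase III corneas, 13.8 and 18.5 TPM after the wound alone and 70.9 and 65.0 TPM in unwounded corneas. Mr1 fell by 2.02 with the wound (SE 0.21, limma adjusted p = 0.00839) and differed by -1.25 between RNase III and unwounded corneas (adjusted p = 0.028).

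For class II, 4 of 6 tested genes of loading and processing rose with the wound, beside 6.12% of all genes, all 4 of them endosomal enzymes. Ctss, the cathepsin that trims the invariant chain, had 42.9 and 60.9 TPM in RNase III corneas, 124 and 155 TPM after the wound alone and 35.4 and 30.5 TPM in unwounded corneas. Both wounded libraries stood above all others for Ctss, which rose by 2.04 (SE 0.24, limma adjusted p = 0.0104). It differed by -1.42 between RNase III and wounded corneas (SE 0.24, limma adjusted p = 0.268). Ifi30, a thiol reductase of the endosome, rose by 1.02 (adjusted p = 0.0355), Ctsl, another cathepsin, by 0.87 (adjusted p = 0.0403) and Lgmn, the endosomal protease legumain, by 0.78 (adjusted p = 0.0316). The peptide exchange genes H2-DMa and H2-DMb1 differed by 0.51 (adjusted p = 0.328) and 0.06 (adjusted p = 0.906) and did not pass. H2-DMb2, H2-Oa, H2-Ob and H2-Eb2 were too low to test. These enzymes also work in endosomes outside class II presentation. Of 5 genes of class II turnover and co-stimulation, Cd80, a ligand that co-stimulates T cells, rose by 2.22 (SE 0.38, limma adjusted p = 0.0208), with 4.18 and 5.61 TPM with RNase III, 9.20 and 4.69 TPM after the wound alone and 0.65 and 0.62 TPM in unwounded corneas. Cd40 of the same list differed by -0.19 (adjusted p = 0.845).

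**Figure D5:**
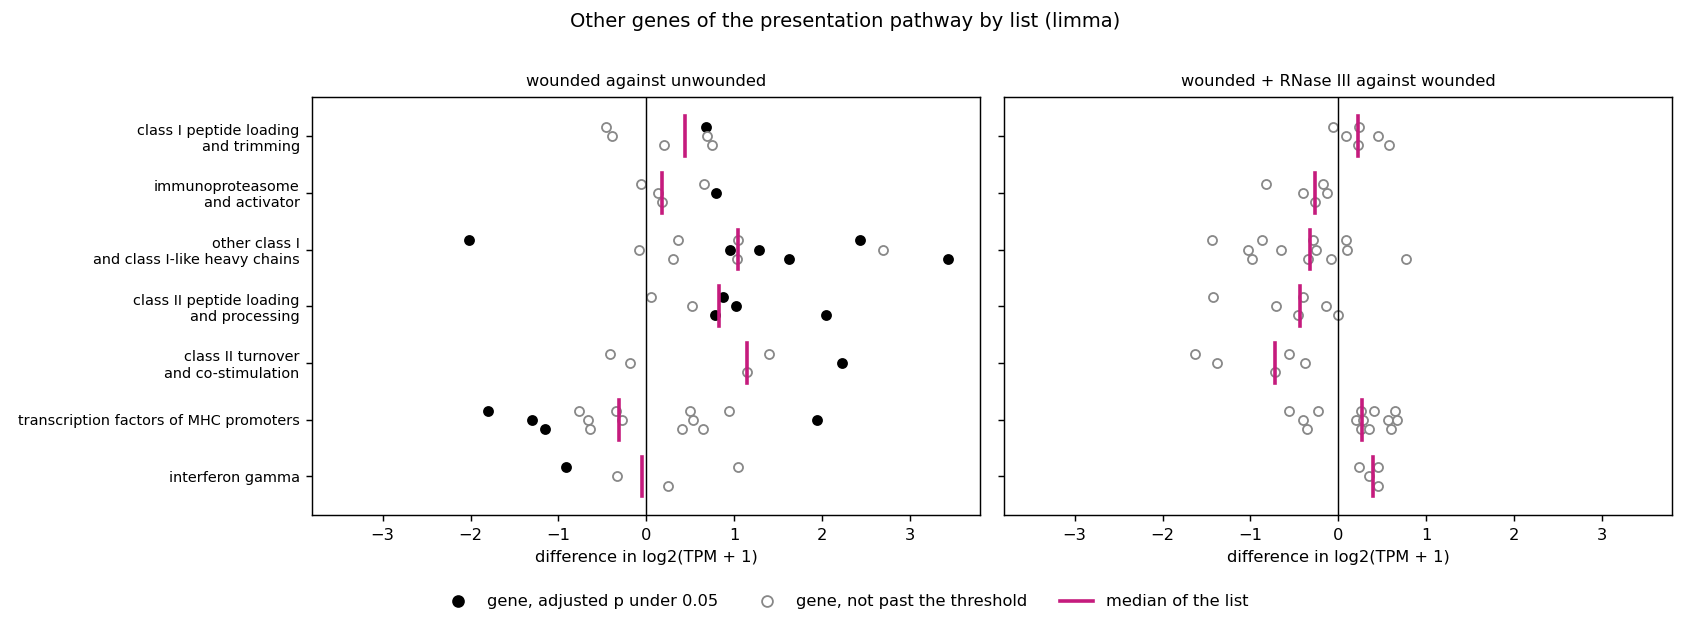
Difference in log2(TPM + 1) (horizontal axis) of each tested gene of 7 lists of the presentation pathway, for wounded against unwounded and RNase III against wounded corneas; filled points passed a limma adjusted p of 0.05 and bars mark the median of a list. With the wound 13 genes are filled on the higher side and 5 on the lower, and none is filled for RNase III against wounded corneas.

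Of 14 regulators of the MHC promoters tested, 1 rose and 3 fell with the wound, beside 6.12% and 9.83% of all genes. The count that rose stands near the share of all genes, and both counts are small. Nlrc5, the transactivator of class I genes, had 9.41 and 4.43 TPM in RNase III corneas, 3.18 and 4.86 TPM after the wound alone and 0.32 and 0.25 TPM in unwounded corneas. All 4 wounded libraries exceeded both unwounded ones, and Nlrc5 rose by 1.95 with the wound (SE 0.41, limma adjusted p = 0.0314) and was 2.55 higher with RNase III than without a wound (SE 0.41, adjusted p = 0.0253). Rfx5, a subunit of the factor that binds the X box of MHC promoters, fell by 1.30 (SE 0.29, limma adjusted p = 0.0336) and Creb1 by 1.15 (adjusted p = 0.0422). Irf1, an interferon-induced activator of class I genes, had 54.0 and 76.8 TPM in RNase III corneas, 28.8 and 80.6 TPM after the wound alone and 178 and 165 TPM in unwounded corneas, and fell by 1.81 with the wound (SE 0.45, limma adjusted p = 0.0435). Its log2 difference was -1.08 without wounded replicate 1, where the call was lost (limma adjusted p = 0.126), and -2.53 without wounded replicate 2. The genes of NF-Y, which binds the ATTGG core printed in capitals above, did not pass, and neither did Rela and Nfkb1 of NF-kappa B with the wound.

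Interferon gamma, the classical inducer of class II through Ciita, was listed at 0 TPM in 5 libraries and at 0.07 TPM in wounded replicate 1. Of the 4 other genes of its pathway, the receptor gene Ifngr2 fell by 0.91 with the wound (SE 0.22, limma adjusted p = 0.0403). Ifngr1, the ligand-binding receptor chain, had 132 and 228 TPM in RNase III corneas, 140 and 115 TPM after the wound alone and 59.8 and 62.4 TPM in unwounded corneas. It differed by 1.04 with the wound (SE 0.28, limma adjusted p = 0.0502) and was 1.49 higher with RNase III than without a wound (adjusted p = 0.0323). Jak1, the kinase bound to that chain, differed by -0.34 with the wound (adjusted p = 0.210).

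Genes with the most similar profile were sought by the root mean square (RMS) difference of centred log2(TPM + 1) over the 6 libraries, as a description. For the mean profile of the class I chains, Tmem106a (0.102), Sla (0.116) and Stoml2 (0.116) were closest among 8998 candidates. With RNase III, Tmem106a had 6.24 and 13.7 TPM, against 14.9 and 15.7 TPM after the wound alone and 7.0 and 6.28 TPM in unwounded corneas. For the mean profile of the class II chains, Cd74 was closest among 3841 candidates, at an RMS difference of 0.1, and was followed at a distance by Fibin (0.207) and Csf1r (0.217). Cd74, on another chromosome than the chain genes, thus kept nearest to them in this table. Fibin, on none of the marker lists, had 2.54 and 8.01 TPM with RNase III, 19.0 and 17.1 TPM after the wound alone and 14.9 and 11.5 TPM in unwounded corneas. Csf1r, the defining macrophage marker, had 1.56 and 6.88 TPM with RNase III, 11.7 and 10.2 TPM after the wound alone and 7.83 and 5.24 TPM in unwounded corneas. With a pseudocount of 0.1 in place of 1, 2 of the 3 class I neighbours and 1 of the 3 class II neighbours, Cd74, remained. Csf1r was then not among the 10 nearest to class II. Likeness of profile does not tell which cells made class II.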

How the data were processed

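RNA sequencing of total RNA from 6 mouse cornea samples, 2 in each of 3 groups taken from the sample titles, was analysed. The authors deposited 1 table of TPM for 54446 gene rows. STAR, RSEM, DESeq2 and the build mm10 are named, without role or version, in the submitters' processing notes, and the annotation is not stated there. All libraries have nearly the same TPM total, so very abundant transcripts press down the rest, and read depth cannot be recovered. Of the gene identifiers 54409 matched a symbol and 37 did not. Values were tested as log2(TPM + 1), which understates the change of low genes, for the 14748 genes that reached 1 TPM in 2 or more libraries. The test was limma 3.58.1 in R 4.3.3, with group means over all 6 libraries, a mean-variance trend, two-sided p-values and Benjamini-Hochberg adjustment over all genes per comparison, called at adjusted p under 0.05. The limma fit was tried on simulated data with independent normal noise and spreads shuffled over genes. Such data lack the departures of single libraries seen here, so the trial does not vouch for these calls.

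The 10 genes, the gene lists and the marker lists were chosen with earlier results of these data known. Named are the 10 genes; of each pathway list up to 4 genes with the smallest adjusted p past the threshold with the wound, or the 2 most abundant where fewer than 2 passed; the 3 nearest profiles of each class among genes with official names whose range was at least that of the profile divided by 1.5; and the defining marker of a list. Psmb8, Psmb9, Psmb10, H2-Q4, H2-T23, H2-DMa, H2-DMb1, Rela and Ifngr2, and the markers beyond the defining ones, were named after their values were seen. The B cell marker list as a whole is not reported here. Promoters are those of RefSeq on GRCm38.p6. Tried as alternatives were leaving out each library in turn, a fit without a trend, a fit on only the groups compared, the replicate number as a block, scaling by the median of ratios, testing without a filter, a pseudocount of 0.1, and other sums for the class ratio.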

Additional observations from a re-analysis of the deposited data

How the results depend on the processing

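Each group had 2 libraries and TPM keeps no depth, so a call rests on a spread that limma pools over genes, and many calls were lost when a library was left out. A group left with 1 library was then assumed to vary like the others. Over the alternatives, 294 values of single members kept their direction and side of the threshold, 12 passed it newly, 11 no longer passed it and 7 reversed. Only H2-K1 and B2m with the wound were called in the main fit, and the 11 that no longer passed were all theirs. Most of the 294 kept their side by staying uncalled, so that count does not measure how firm the calls are. Of the 18 other pathway genes called with the wound, 2 kept the call with no filter on low values, 12 with the replicate block and 8 with no trend. Unless a sentence says otherwise, the cause was not tested.

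With no filter, wounded against unwounded corneas gave 179 genes higher and 265 lower, with no member called, and RNase III against unwounded corneas gave 44 higher and 25 lower. Median-of-ratios scaling gave 1525 genes higher with the wound and 1213 higher with RNase III than without a wound. It moved the median log2 difference of all genes by 0.15 in RNase III against unwounded corneas and by -0.10 in RNase III against wounded corneas. In wounded against unwounded corneas H2-D1 joined the called members with this scaling (limma adjusted p = 0.0301), which were then 3. Members called higher with the wound numbered 5 with only the 2 groups in the fit and 1 with no trend, where H2-K1 had a limma adjusted p of 0.0532. A pseudocount of 0.1 gave 1 gene lower with RNase III than in wounded corneas, and 1 of the 3 nearest class II profiles was shared. Leaving out each library gave, with the wound, 22 to 1297 genes higher, 3 to 1945 lower and 0 to 5 members higher. For RNase III against wounded corneas it gave 0 to 1 gene lower. For RNase III against unwounded corneas it gave 14 to 645 genes higher, 3 to 638 lower and 0 to 2 members higher. Fewer samples enter these fits.

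Over the libraries left out, log2 differences that reversed ranged, with the wound, from -0.11 (without unwounded replicate 2) to 0.70 for H2-Ab1 and from -0.030 (the same) to 1.03 for Cd74. In RNase III against wounded corneas they ranged from -1.18 to 0.43 for Tap1 and from -0.77 to 0.47 for Tap2 (both highest without RNase III replicate 1). In RNase III against unwounded corneas they ranged from -0.056 to 1.08 for B2m, from -0.15 to 1.46 for Tap1 and from -0.033 to 1.21 for Tap2 (all lowest without RNase III replicate 2). The class ratio kept its direction with means of logs, without B2m and with Cd74 added, though without B2m wounded and unwounded libraries overlapped (9.15% in wounded and 8.96% in unwounded replicate 2).

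The titles give a replicate number and no shared animal or day. Deviations of same-numbered libraries correlated at 0.146 between wounded and unwounded, -0.0469 between RNase III and wounded and 0.103 between RNase III and unwounded corneas. With 2 libraries a group and nothing in the labels, the number was not taken as a pairing. With the replicate block 689 genes were higher and 1343 lower with the wound, with 2 members called, and 605 were higher and 844 lower with RNase III than without a wound.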
